A study of Mus musculus with 2 samples.

Results

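The semaphorin, plexin, Slit, Robo and netrin genes are a set of 42 genes out of the 18193 named on the arrays, and they encode secreted or membrane-bound guidance cues and their receptors. The members were picked by gene symbol, with no expression value in the rule: every class 3 to class 7 semaphorin and every plexin on the arrays, Slit1 to Slit3, Robo1 to Robo3, Ntn1 and Ntn4, Unc5a, Unc5c and Unc5d, Dcc and Neo1. The set was still chosen with earlier results of these data known. The arrays, Affymetrix mouse arrays, profiled primary cultures of endothelium, the inner lining of blood vessels, isolated from C57/BL6 embryos at E10.5 (mid-gestation). All cells were Snail1f/f, carrying Snail1 alleles flanked by Cre recognition sites, and were cultured in DMEM with 20% fetal bovine serum and an endothelial growth factor mix. The WT group received an adenovirus carrying β-galactosidase and the Snail1 KO group one carrying Cre, and each group holds 1 array. Both groups thus received an adenovirus, but not the same one. No array holds cells given Cre without the floxed allele, so loss of Snail1 and effects of Cre or of a difference between the viruses cannot be told apart. With 1 array in each group there is no estimate of variation between cultures, and no difference was tested; sizes are given instead.

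Semaphorins signal mainly through plexins, large receptors whose cytoplasmic part acts on small GTPases. Most class 3 semaphorins are secreted and need a neuropilin co-receptor to reach a plexin, whereas Sema3e can bind plexin D1 directly. Slits bind Robo receptors, and netrins bind the Dcc family (Dcc and Neo1) and the Unc5 family. First known from the steering of axons, these cues also steer growing vessels: Sema3e and plexin D1 limit sprouting between the somites, and endothelial cells use Robo4 and Unc5b besides the receptors listed here.

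For each gene the probe set that was brightest on average over both arrays was taken, on the log2 scale of the deposited values, and differences are Snail1 KO minus WT. A gene was analysed if that average exceeded a log2 value of 3.97, the 40th percentile of the non-control probe sets (the filter level). This passed 35 of the 42 genes and 12874 of all 18193. As a yardstick without replicates, the robust SD of the difference over all analysed genes was 0.32 log2 units. The 7 guidance genes left out were dim: Sema4a, Sema5a, Plxnc1, Robo1, Robo2 and Unc5d were below the filter level on both arrays, and Slit3 was at 4.18 on the WT array and 3.65 on the Snail1 KO array. Their transcripts were thus not well measured, which does not show that they were absent.

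Snai1, by its 1 probe set, was at 5.33 on the WT array and 3.59 on the Snail1 KO array. Whether that probe set lies in the deleted part is not known from the labels, so it does not settle the deletion. Of 16 endothelial markers 15 were analysed, among them Cdh5 (VE-cadherin) at 11.34 and 11.46. Of the 15, 9 were higher and 6 lower, with a median difference of 0.07. By 1.5-fold, 3 were higher and 1 lower, beside 5.06% and 6.08% of all analysed genes. The higher ones were Cldn5, Sox18 and Tek, with differences of 1.08, 0.72 and 0.62, and the lower one was Flt1, at -0.74. The summed level of all 16, taken on the linear scale, was 15.18 on the WT array and 15.35 on the Snail1 KO array in log2 units. Each such sum runs over all markers of its list that were found, analysed or not, and the brightest weigh most. Vwf did not reach the filter level on either array. Several guidance genes are also expressed by neural and mesenchymal cells. Of the neural and neural crest markers 9 of 14 found were analysed, 8 of them lower (88.9%, beside 50.9% of all analysed genes). Their median difference was -0.20, and the summed level was 11.56 (WT) and 10.69 (Snail1 KO). The brightest of the list were the neuronal gene Stmn2, at 10.18 and 8.53, and Gap43, at 10.35 and 9.77. Dcx and Sox2 were below the filter level on both arrays. Of the mesenchymal and mural markers 8 of 15 were analysed, 4 of them lower, with a median difference of -0.20, and the summed level was 12.07 and 10.89. The contractile genes Tagln and Acta2, the brightest of this list on the WT array, differed by -2.54 and -1.85. The matrix genes Col1a1, Col1a2 and Dcn differed by 0.12 to 0.31, whereas Pdgfra, Twist1 and Rgs5 were below the filter level on both arrays. Of the leukocyte markers 6 of 10 were analysed, with a median difference of -0.08, and the sums were 8.89 and 8.63. Coro1a differed by -1.96 and Mrc1 by 1.52, while Ptprc did not reach the filter level on either array. Of the epithelial markers 6 of 9 were analysed, 5 of them lower (83.3%), with a median of -0.17 and sums of 8.65 and 8.50. The keratins Krt18 and Krt19 differed by -1.30 and -1.37 and the junction gene Ocln by 0.53, and Cdh1 did not reach the filter level on either array. The part that other cells play in the differences of Slit2, Sema3c and Sema3e was not tested, and in such bulk samples fewer cells of a type cannot be told apart from less RNA in each cell.

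Across the guidance genes, differences leaned towards higher values on the Snail1 KO array. Of the 35 analysed genes 19 (54.3%) differed by less than the yardstick of 0.32 in either direction, beside 66.6% of all analysed genes. The median difference of the 35 analysed genes was 0.11, beside -0.008 for all analysed genes, and 23 of 35 (65.7%) were higher, beside 48.9% of all analysed genes. By 2-fold, which is 1 log2 unit, 1 gene was higher (Sema4d) and 2 were lower (Slit2 and Sema3c). These are 2.86% and 5.71% of the 35, beside 0.971% and 1.84% of all analysed genes, and counts of 1 and 2 carry little weight. By 1.5-fold, 6 genes were higher (Sema4d, Ntn1, Neo1, Sema4f, Plxnd1 and Sema7a) and 3 lower (Sema3c, Slit2 and Sema3e). That is 17.1% and 8.57% of the 35, beside 5.06% and 6.08% of all analysed genes. The 22 analysed ligands held all 3 of the lower genes (13.6% of the ligands) and 4 of the higher ones (18.2%), with differences from -1.15 to 1.496. The 13 analysed receptors ranged from -0.37 to 0.85, and 11 of them lay within 1.5-fold. The other 2 (15.4%) were higher, beside 5.06% of all analysed genes, and 0 were lower, beside 6.08%.

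**Figure D1:**
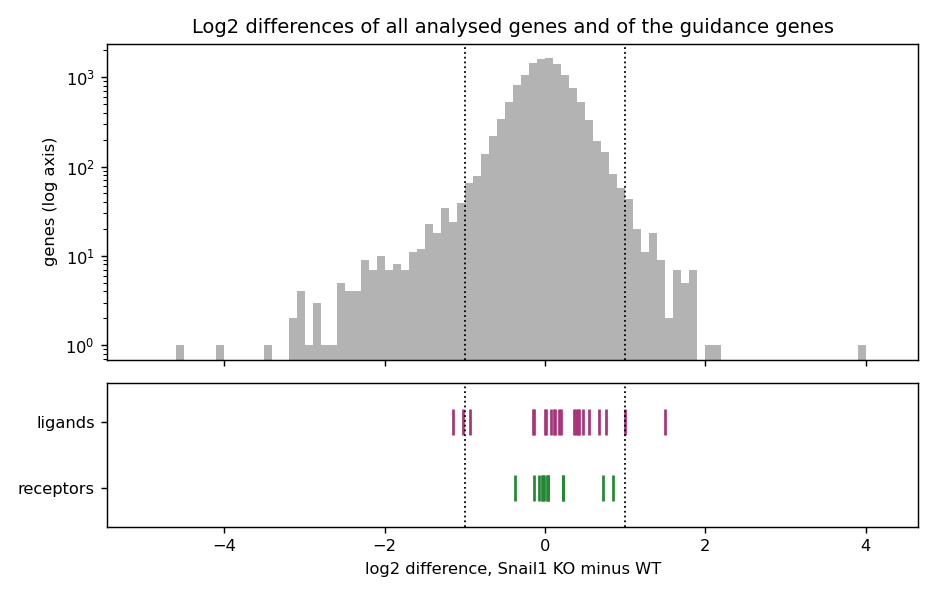
The upper panel counts all 12874 analysed genes by log2 difference (Snail1 KO minus WT, bins of equal width, log axis for the counts), and the lower panel marks each of the 22 ligands and 13 receptors by a tick, with dotted lines at 2-fold. The receptors lie between -0.37 and 0.85, and the ligands reach from -1.15 to 1.496.

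Class 3 semaphorins, the secreted class, were all analysed, and differed in both directions. Of the 7, 5 were higher (71.4%, beside 48.9% of all analysed genes), none by 1.5-fold, and Sema3c and Sema3e were lower. Sema3e, the ligand of plexin D1, was at 7.77 on the WT array and 6.84 on the Snail1 KO array in its brightest probe set, 1.91-fold lower. All 4 of its probe sets were above the filter level and lower on the Snail1 KO array, by log2 differences of -0.84 to -1.19. Sema3c, a cue for migrating neural crest cells in the heart's outflow tract, had values of 4.93 (WT) and 3.78 (Snail1 KO), a 2.22-fold lower level. The Snail1 KO value lies below the filter level, and so does the other Sema3c probe set on both arrays, at 3.26 and 2.59. Sema3c is thus a dim gene whose size of difference is uncertain.

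The other class 3 members were higher by 0.11 to 0.48. Sema3d, which is known to act on endothelial cells, was at 9.33 and 9.80, and its other probe set gave 6.88 and 7.32. Sema3f, a neuropilin-2 ligand that repels endothelial cells, was at 8.99 and 9.34, and all 3 of its probe sets were higher, by 0.27 to 0.53. Its brightest probe set is of a kind that can bind transcripts of several genes. Sema3a, the classical repulsive cue for axons, was at 8.43 and 8.61 in its brightest probe set, and its dimmer ones were higher by 0.43 and 0.83. Sema3g, which is expressed by arterial endothelium, was at 4.76 and 5.18, and Sema3b at 4.23 and 4.33. In the RefSeq gene table Sema3d and Sema3a are neighbours with 0 protein-coding genes between them, and 3 lie between Sema3a and Sema3e. These neighbours differed by 0.48 (Sema3d), 0.18 (Sema3a) and -0.93 (Sema3e).

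**Figure D2:**
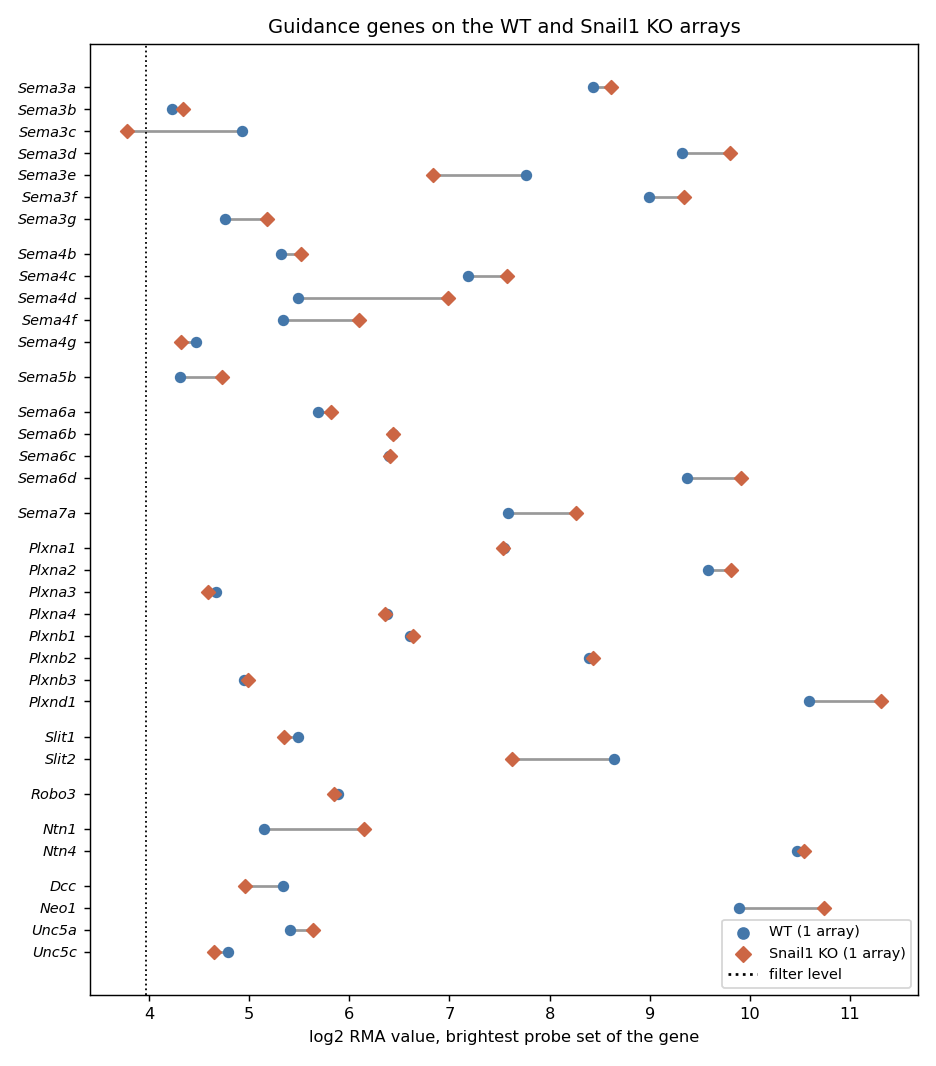
Each line joins the log2 value on the WT array (blue circle) and on the Snail1 KO array (orange diamond) for the brightest probe set of each of the 35 analysed genes, ordered by role, with the filter level of 3.97 dotted. Long lines to the left belong to Sema3c, Sema3e and Slit2, and long lines to the right to Sema4d, Ntn1, Neo1, Sema4f, Plxnd1 and Sema7a. Levels of different genes come from different probes and are not comparable.

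Among the membrane-bound class 4 semaphorins, 4 of the 5 analysed genes were higher (80.0%, beside 48.9% of all analysed genes). Sema4d, the ligand of plexin B1, measured 5.49 on the WT array and 6.98 on the Snail1 KO array in its brightest probe set, 2.82-fold higher. The probe sets disagreed, since another one above the filter level was at 4.37 and 4.02, a difference of -0.35, and the dimmest was at 2.98 and 2.92. The largest difference among the brightest probe sets thus rests on 1 of 3 probe sets of its gene, and the mean over all of them was 0.37. Sema4f was at 5.34 and 6.10 in its brightest probe set, 1.69-fold higher, and its other probe set was at 4.44 and 6.40, a 3.88-fold higher value. The latter is of the kind that can bind transcripts of several genes. Of the others, Sema4c, a plexin B2 ligand, was at 7.19 and 7.58, Sema4b at 5.32 and 5.52, and Sema4g at 4.47 and 4.32.

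Classes 5 to 7 showed no analysed gene past 2-fold in its brightest probe set. Sema7a, a membrane-anchored semaphorin that binds plexin C1 and integrins, measured 7.59 on the WT array and 8.26 on the Snail1 KO array (1.598-fold higher), with its other probe set higher by 0.46. Sema6d was at 9.37 and 9.91, a difference of 0.54, and a dimmer probe set gave 0.53. Sema6a, a transmembrane ligand of A-type plexins, was at 5.69 and 5.82 in its brightest probe set. Its dimmer ones were at 4.86 and 5.59 and at 4.89 and 6.42, so the direction was shared by all 3 but the size ran from 0.13 to 1.53. Sema6b and Sema6c, at differences of -0.001 and 0.02, were far inside the yardstick of 0.32, and Sema5b, a dim gene, was at 4.31 and 4.73.

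The plexins differed little, with plexin D1 as the exception. Plxnd1, the receptor of Sema3e in endothelium, was at 10.59 on the WT array and 11.31 on the Snail1 KO array, 1.65-fold higher, by its 1 probe set. The ligand Sema3e and the receptor Plxnd1 differed in opposite directions, by -0.93 and 0.72. The other 7 analysed plexins lay between -0.07 and 0.23. Plxna2, an A-type plexin used by class 3 and class 6 semaphorins, had the value of 0.23, with levels of 9.58 and 9.81 in its brightest probe set and a range of -0.05 to 0.23 over its 4. Plxnb1 was at 6.61 and 6.63, Plxnb2 at 8.39 and 8.43 and Plxna1 at 7.55 and 7.53, while Plxna3, Plxna4 and Plxnb3 were also within 0.08 of 0.

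Of the Slits, Slit2 was lower and Slit1 differed by -0.14. Slit2, a large secreted ligand of Robo receptors, measured 8.65 on the WT array and 7.62 on the Snail1 KO array in its brightest probe set, 2.03-fold lower. A dimmer probe set was at 4.76 and 4.22, a difference of -0.55, and the third was near 3 on both arrays, at 2.99 and 3.01. Slit2 was not past 2-fold with the mean of its probe sets above the filter level, at -0.79, or of all 3, at -0.52. Of the Robo family, Robo1 and Robo2 were below the filter level on both arrays, and Robo3, a commissural axon receptor, was at 5.89 and 5.85. Robo4, the endothelial member of the family, was at 10.28 and 10.19 by its 1 probe set, a difference of -0.09. It was followed as a gene outside the 42.

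Netrin-1 and the netrin receptors Neo1 and Unc5b were all higher on the Snail1 KO array. Ntn1 measured 5.14 on the WT array and 6.14 on the Snail1 KO array, a log2 difference of 0.9999 that falls just short of 2-fold. Its other probe set was below the filter level, at 3.33 and 3.14. Ntn4, a netrin of vascular basement membranes, was at 10.47 and 10.54 in its brightest probe set and at 7.75 and 8.45 in the other, differences of 0.08 and 0.69. Neo1, which encodes neogenin, a receptor for netrins and repulsive guidance molecules, was at 9.89 and 10.74 in its brightest probe set, 1.80-fold higher. Of its 5 probe sets 4 were higher, by 0.80 to 1.15, and the dimmest, at 5.25 and 5.01, was not. The brightest and the dimmest are both of the kind that can bind transcripts of several genes. Unc5b, outside the 42 genes, was at 8.94 and 9.60, 1.58-fold higher, and its other probe set was higher by 0.44. Dcc was at 5.33 and 4.96, Unc5a at 5.41 and 5.63 and Unc5c at 4.78 and 4.65.

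**Figure D3:**
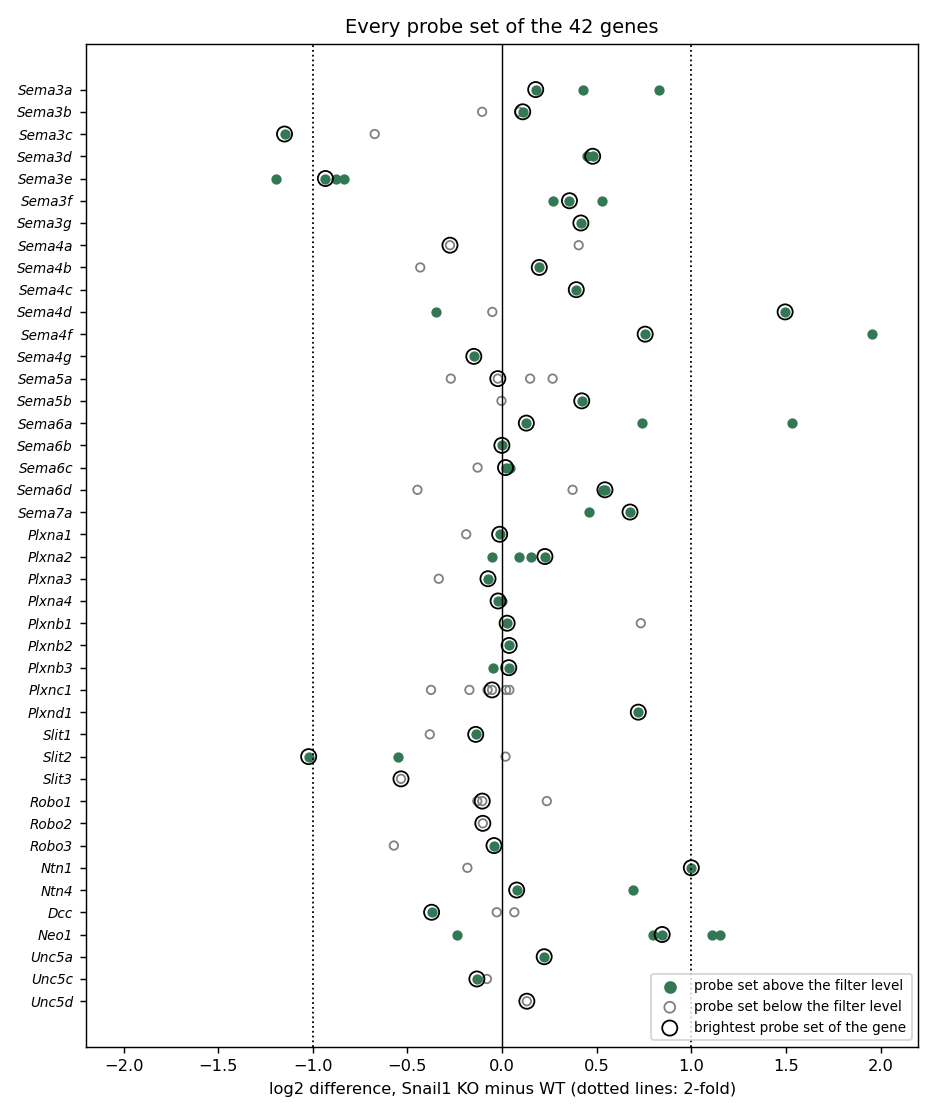
Every probe set of the 42 genes is plotted by its log2 difference (Snail1 KO minus WT), filled where its mean is above the filter level and open where it is not, with a black ring on the brightest probe set and dotted lines at 2-fold. The Sema3e probe sets lie together between -0.84 and -1.19, whereas those of Sema4d run from -0.35 to 1.496 and those of Sema6a from 0.13 to 1.53.

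Probe sets of 1 gene did not always share a direction. Of the 98 probe sets of the 42 genes, 61 were above the filter level. Of the 16 genes with at least 2 such probe sets, 11 had 1 sign in all of them, beside 56.0% of all genes with several. The 5 with both signs were Sema4d, Neo1, Plxna2, Plxna4 and Plxnb3, of which the 3 plexins differed by at most 0.23. Probe sets of 1 gene differed with an SD of 0.30 log2 units around their gene's mean, over 16489 probe sets of 6053 genes. The other 19 analysed genes rest on 1 probe set above the filter level, among them Plxnd1, Ntn1 and Sema3c.

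The co-receptors and signalling partners of these pathways were followed as a list of 60 further genes, of which 59 were found and 51 analysed. Their median difference was 0.12, beside -0.008 for all analysed genes. Of the 51, 32 were higher (62.7%, beside 48.9% of all analysed genes) and 19 lower (37.3%, beside 50.9%). None of the 51 was 2-fold higher and 2 of 51 were 2-fold lower, beside 125 (0.971%) and 237 (1.84%) of 12874 analysed genes. Such small counts carry little weight. Both of the lower genes encode cell surface proteins. Nrp1, which pairs with plexins for Sema3a and with VEGF receptors, measured 7.59 on the WT array and 6.55 on the Snail1 KO array, and its 4 probe sets differed by -0.54 to -1.24. Sdc4, a heparan sulfate proteoglycan, was at 8.14 and 7.11, with its other probe set at -0.73. With the mean of its analysed probe sets Sdc4 was not past 2-fold, at -0.87. Nrp2, the co-receptor for Sema3f, was at 9.28 and 9.70, and its 4 probe sets were higher by 0.29 to 0.98. The 2 neuropilins thus differed in opposite directions on these arrays.

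By 1.5-fold, 3 partners were higher (5.88%, beside 5.06% of all analysed genes) and 7 lower (13.7%, beside 6.08%), Nrp1 and Sdc4 included. The genes named next were chosen after their values were seen. Besides Unc5b, the higher ones were Gpc1, a glypican that binds Slits, at 4.03 and 5.003, and Mical3, of a family of actin-oxidising enzymes, at 7.09 and 7.88. The lower ones included Dpysl3, of the collapsin response mediators that act downstream of semaphorins, at 11.48 and 10.49, with 3 probe sets from -0.99 to -1.54. Rnd1, a small GTPase that binds plexins, was at 8.97 and 8.06, and Vasp, an actin regulator used by netrin and Robo signalling, at 10.49 and 9.81. Rnd3 was at 7.53 and 6.81 in its brightest probe set, with another higher by 0.21, and Dcbld2 differed by -0.59.

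**Figure D4:**
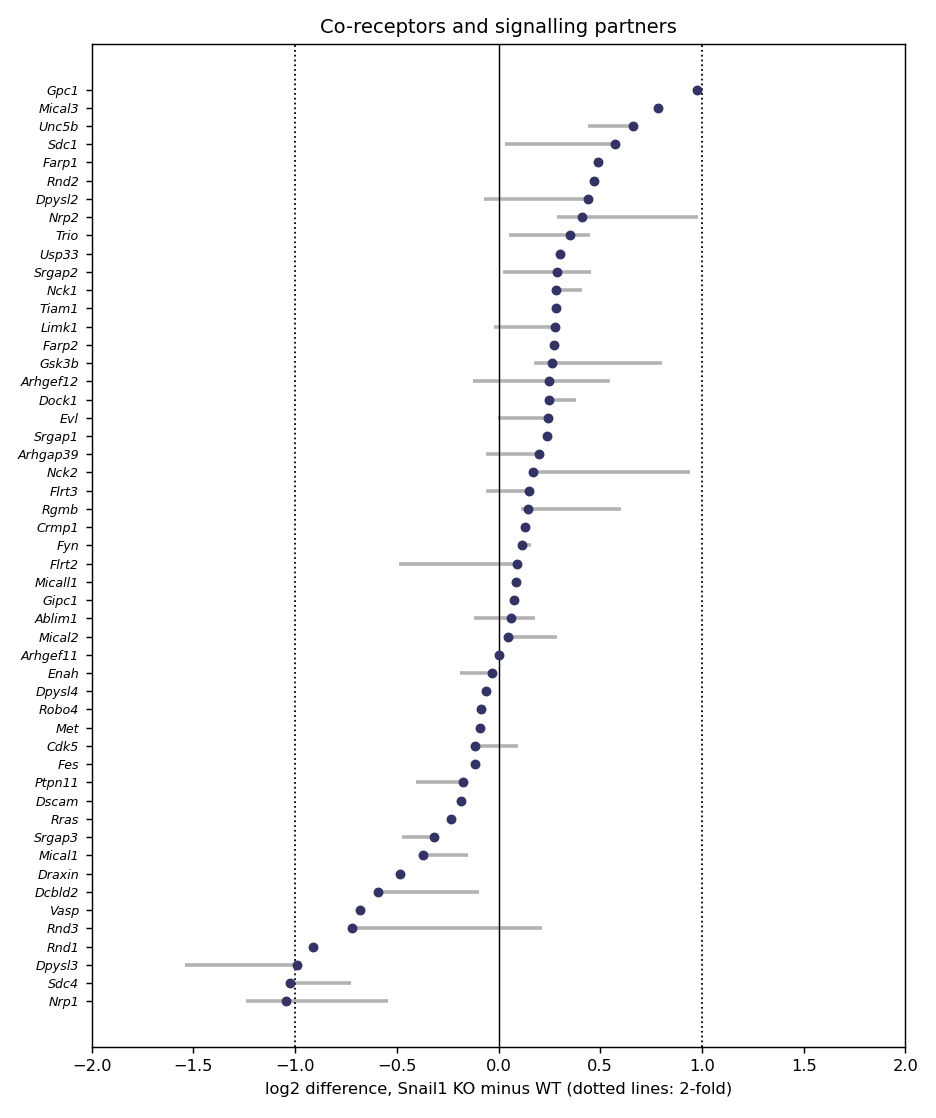
Each of the 51 analysed co-receptors and signalling partners is plotted by the log2 difference of its brightest probe set (dot, Snail1 KO minus WT), with a grey bar over the range of its probe sets above the filter level and dotted lines at 2-fold. Nrp1 and Sdc4 lie left of the lower line, and Gpc1, at 0.97, lies just inside the upper one.

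Snail family zinc fingers are known to bind the E-box CAGGTG, so the 250 bases before each start site were searched for these letters on both strands (CAGGTG or CACCTG). RefSeq promoters of build GRCm38.p6 were matched for 33 of the 42 genes. The letters were found before at least 1 start site of 7 of these 33 genes (21.2%), beside 19.4% of 27025 genes, and in 7 of 46 promoters (15.2%) beside 17.2% of 32851. The 7 genes are Sema4f, Sema4c, Sema3d, Sema6d, Plxnb2, Robo1 and Robo3. Sema4f alone among them has the letters more than once in a promoter. Robo1 was not analysed, and of the others Sema4f alone differed by 1.5-fold. Whether the letters bear on any difference was not tested. None of the 3 Sema4d promoters holds them, nor do those of Sema3c, Sema3e, Slit2, Plxnd1, Neo1 and Sema7a. Ntn1 was not searched. A match is a description of the sequence, and no binding was measured here. The promoters of 3 genes are given, those of Sema4f, with both matches, and of the genes that were 2-fold lower, with none. Sema4f is printed for its matches, though it was below 2-fold in its brightest probe set. The promoters of Sema4d, the gene 2-fold higher, hold no match and are not printed, so the printed genes do not contrast higher with lower genes. Each is given as the bases that end at the start site, 5′ to 3′ on the gene's strand, with the searched letters in capitals. The matches in Sema4f begin 110 and 89 bases before the start site. The Sema4f sequence lies at chr6:82939770-82940019 on the minus strand, that of Sema3c at chr5:17574566-17574815 and that of Slit2 at chr5:47982905-47983154, both on the plus strand.
Sema4f: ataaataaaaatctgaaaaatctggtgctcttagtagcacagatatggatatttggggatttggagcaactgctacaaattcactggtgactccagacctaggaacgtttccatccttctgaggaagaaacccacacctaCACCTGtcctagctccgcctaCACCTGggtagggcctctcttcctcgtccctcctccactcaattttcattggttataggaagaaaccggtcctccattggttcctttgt
Sema3c: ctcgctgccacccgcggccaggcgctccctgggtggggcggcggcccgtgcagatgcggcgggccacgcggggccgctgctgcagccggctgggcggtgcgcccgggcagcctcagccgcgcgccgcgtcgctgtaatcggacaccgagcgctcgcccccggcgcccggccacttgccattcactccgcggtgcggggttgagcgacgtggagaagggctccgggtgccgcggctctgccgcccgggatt
Slit2: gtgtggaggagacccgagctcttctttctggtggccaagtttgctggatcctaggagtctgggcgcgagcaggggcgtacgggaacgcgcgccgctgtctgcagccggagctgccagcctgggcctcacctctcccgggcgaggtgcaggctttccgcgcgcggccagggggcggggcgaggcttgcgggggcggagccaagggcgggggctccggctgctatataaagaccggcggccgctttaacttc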

How the data were processed

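Expression was measured on 2 arrays, 1 of WT and 1 of Snail1 KO cells, grouped by sample title. The deposited values are log2 expression per probe set, which the authors computed by RMA (affy), per the submitters' processing notes, versions not given in the sources. RMA quantile-normalizes the arrays, which hides a change in total mRNA, and it compresses differences of dim probe sets. Per the labels' protocols, Trizol extracts of 250 ng total RNA were amplified and biotinylated. No detection calls were used, so signal over background is unknown.

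Of 45101 probe sets, 34945 carried 1 gene symbol in GEO's platform annotation, 932 several and 9160 none; 64 are controls. No probe set with several symbols names a guidance gene. The symbols of all 42 genes matched RefSeq (GRCm38.p6) by Entrez identifier. The named genes are Snai1, guidance genes past 1.5-fold or with a probe set past 2-fold, Nrp1, Nrp2, Robo4, Unc5b and partners past 2-fold; others are given by level or range. Members and lists were chosen with earlier results of these data known. Counting was tested on simulated data. Python 3.11.15, numpy 2.4.6 and pandas 2.3.3 were used. The alternatives were other filters, probe set choices, a centring on the running median of 501 genes and other size thresholds. The number of arrays limits the precision.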

Additional observations from a re-analysis of the deposited data

Results flagged for a closer look

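Outside the gene comparisons, 4 array control probe sets detect Cre of phage P1, and these lay between 2.69 and 3.83 on the WT array and between 11.87 and 12.86 on the Snail1 KO array. Their log2 differences were 8.04, 9.52, 9.44 and 10.17, above the WT array as the control. Whether this signal comes from the cells or from control RNA added to the sample was not tested.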

How the results depend on the processing

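No paired analysis was possible because each group holds 1 array, and no array could be left out. The median of the guidance genes stayed positive under every alternative run, from 0.04 without a filter to 0.24 with the mean of all probe sets, and that of the partners from 0.09 to 0.12. None of 94 values of the 16 named genes under the alternatives had the other sign, but many of them could not differ. Another filter keeps each gene's probe set and so its value. Dropping probe sets named _s_at or _x_at, which can bind transcripts of several genes, changed only Neo1 among the named genes. Those named _a_at, such as the brightest of Sema3e and Sema6a, were kept. Counts of so few genes moved easily. Genes 2-fold lower numbered 1 with the filter at the 60th percentile, 0 with the mean of all probe sets and 1 with the mean of the analysed probe sets, an alternative chosen after seeing the data. Genes 2-fold higher numbered 2 when _s_at and _x_at probe sets were dropped, where Neo1 reached 1.15, and 2 with centring on the running median, where Ntn1 passed. At 1.5-fold 6 were higher and at 3-fold 0 were higher and 0 lower. Over all genes, the mean of all probe sets gave 77 higher, 1.5-fold gave 652 higher and 783 lower, and 3-fold gave 23 and 90. With the mean of all probe sets the difference was 0.37 for Sema4d, 1.36 for Sema4f, 0.80 for Sema6a, -0.52 for Slit2 and 0.41 for Ntn1; the cause was not tested.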
